A study of Mus musculus with 2 samples.

Results

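Genes with a Gpr symbol, most of them named as orphan receptors of the G protein-coupled class before any ligand was known, were described in the suprachiasmatic nucleus (SCN), where the central circadian clock of mammals lies in the hypothalamus. The members were the rows of the deposited gene table whose symbol is Gpr followed by a number and at most 1 letter, which gave 86 of 24229 genes. The ST library came from the SCN of wild-type C57BL/6 mice at postnatal day 68 that had been entrained to a short T-cycle, and the NT library from mice of the same strain, genotype and age entrained to a normal T-cycle, a T-cycle being a light-dark schedule of set length. Both groups spent 7 days in darkness before 4 weeks of entrainment, and brains were taken at circadian time 4 h, after 5 more days in darkness. Each group had 8 mice, but no source used here says how many of them entered its library. The RNA kit is named for nuclear or cytoplasmic RNA, the labels speak of total RNA, and no source used here says which fraction was kept, so levels may be those of either fraction or of whole cells. With 1 library per group no test between conditions was possible, and every difference below is one between these libraries. Intervals are 95% counting intervals from the exact Clopper-Pearson method and cover counting error only.

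G protein-coupled receptors are membrane-spanning proteins that turn an outside signal into a change of cAMP, calcium or other signals inside the cell through G proteins. In SCN neurons cAMP is part of the clock mechanism itself, and receptors that raise or lower it can shift the phase or change the period of the clock. Gpr176 is the orphan receptor best known from the mouse SCN: it couples to the G protein Gz, keeps cAMP low and lengthens the period of behaviour. Gpr6, Gpr3 and Gpr12 act the other way, since they drive cAMP synthesis through Gs without an added ligand.

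Promoter windows of these 4 genes are shown because Gpr6 had the highest ST to NT ratio among the measured members and Gpr176 is the clock receptor. They run from 250 bases before to 50 bases after a transcript start of RefSeq, on assembly GRCm38.p6, 5′ to 3′ on the gene's strand, which is the minus strand for all 4. Capitals mark TGACG and its reverse complement CGTCA, the core of the cAMP response element (CRE), and where both overlap they spell the full CRE. The Gpr6 window is chr10:41072241-41072540, that of Gpr176 chr2:118373370-118373669, that of Gpr3 chr4:133212487-133212786 and the first of the 2 for Gpr12 chr5:146584355-146584654.
Gpr6: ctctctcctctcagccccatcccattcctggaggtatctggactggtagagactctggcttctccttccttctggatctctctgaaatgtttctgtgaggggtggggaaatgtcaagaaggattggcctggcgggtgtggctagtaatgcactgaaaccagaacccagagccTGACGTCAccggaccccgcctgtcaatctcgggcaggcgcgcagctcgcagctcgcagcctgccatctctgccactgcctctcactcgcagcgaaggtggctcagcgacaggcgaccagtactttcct
Gpr176: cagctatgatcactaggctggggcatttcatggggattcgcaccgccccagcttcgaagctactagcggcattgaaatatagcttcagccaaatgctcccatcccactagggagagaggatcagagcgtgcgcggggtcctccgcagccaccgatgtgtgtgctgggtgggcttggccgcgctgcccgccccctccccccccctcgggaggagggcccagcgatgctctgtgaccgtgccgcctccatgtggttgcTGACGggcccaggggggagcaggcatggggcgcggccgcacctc
Gpr3: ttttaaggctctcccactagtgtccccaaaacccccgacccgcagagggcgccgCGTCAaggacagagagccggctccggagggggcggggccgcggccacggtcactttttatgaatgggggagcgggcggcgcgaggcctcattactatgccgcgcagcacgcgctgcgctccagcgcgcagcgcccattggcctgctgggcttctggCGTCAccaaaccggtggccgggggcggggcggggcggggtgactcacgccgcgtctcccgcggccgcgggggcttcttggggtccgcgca
Gpr12: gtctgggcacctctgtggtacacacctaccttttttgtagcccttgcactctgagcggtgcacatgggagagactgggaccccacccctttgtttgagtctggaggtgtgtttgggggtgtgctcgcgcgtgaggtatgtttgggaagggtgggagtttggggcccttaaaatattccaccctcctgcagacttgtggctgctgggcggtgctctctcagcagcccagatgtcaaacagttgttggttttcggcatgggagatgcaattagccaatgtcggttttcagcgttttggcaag
The Gpr6 window held a full CRE, TGACGTCA, which begins 78 bases before the transcript start (chromosome 10, 41072361 to 41072368 in GRCm38.p6). Of the 63 members with a window in the RefSeq table, Gpr6 was the only 1 with this motif. The full CRE was in 1.22% of the 82 member windows, no larger a share than the 1.79% of all 32851 windows. The CRE reads the same on both strands. The core TGACG, searched on both strands and counted also inside a full CRE, was in 28.05% of the 82 member windows and in 20.8% of all windows. It was seen in the windows of Gpr176, Gpr3 and Gpr6 but in neither of the 2 windows of Gpr12. The E-box CACGTG, the element bound by CLOCK and BMAL1, also reads the same on both strands. It was in 2.44% of member windows, those of Gpr146 and Gpr63, and in 7.15% of all windows. The D-box TTATGNAA, searched on both strands, was in 3.66% of member windows and 3.39% of all windows, and the GC box GGGCGG, searched likewise, in 42.7% and 35.7%. CpG dinucleotides, the sites of DNA methylation, numbered 13 in the Gpr6 window, 20 in that of Gpr176 and 38 in that of Gpr3. The Gpr12 window shown held 8, and its other window 11. The median was 8 over member windows and 7 over all windows. A motif match describes the letters of a window and is not evidence of binding.

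The ST library held 19476800 counts and the NT library 24790727, so NT values rest on more reads. The tissue label was checked against 12 SCN markers. All 12 were at 1 RPKM (counts per kilobase of gene, scaled to the library total) or more in both libraries, and Avp, the vasopressin gene, had 656 RPKM in ST and 563 RPKM in NT. Markers of other regions were mixed: 1 RPKM in both libraries was reached by 0 of 6 for cortex, but by 8 of 10 for striatal neurons, 5 of 8 for thalamus and habenula and 4 of 6 for pituitary and arcuate nucleus. Penk, listed as a striatal marker, had 85.9 RPKM in ST and 81.1 RPKM in NT. Adora2a and Ido1 of the same list fell short of 1 RPKM. Adora2a had 0.365 RPKM in ST and 0.462 RPKM in NT, and Ido1 had 0.255 RPKM in ST and 0.378 RPKM in NT. Whether reads of the listed genes came from striatum or from the SCN itself was not tested. Some deposited counts are fractional, and such counts were rounded here. They were taken to include reads divided among several genes, although no source used here says so. A fractional count was found for 26 of the 86 members, which are said below to share reads and are less certain.

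Gpr genes reached 1 RPKM nearly as often as all genes did, but 10 RPKM less often. In both libraries, 48 of 86 members (55.8%) reached 1 RPKM, against 60.8% of all genes, and 12 members (14.0%) reached 10 RPKM, against 27.6%. The median level of the members was 1.79 RPKM in ST and 1.81 RPKM in NT, against 2.86 RPKM in ST and 2.89 RPKM in NT over all genes. The 10 highest members by mean RPKM took 56.7% of the summed RPKM of all members in ST and 56.9% in NT.

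Gpr56, an adhesion receptor of neural progenitors, oligodendrocyte precursors and other brain cells, had the highest level, with 62.8 RPKM in ST and 61.7 RPKM in NT. Gpr162, a rhodopsin-like orphan, followed with 54.1 RPKM in ST and 54.1 RPKM in NT. Gpr137, a lysosomal membrane protein, ranked 3 by mean RPKM, with 27.8 RPKM in ST and 29.4 RPKM in NT. Gpr101, an orphan receptor of hypothalamic neurons that raises cAMP, ranked 4 with 29.5 RPKM in ST and 24.98 RPKM in NT. The order after these was close: Gpr153, Gpr37, Gpr165, Gpr108, Gpr123 and Gpr17 lay between 11.9 and 17.3 RPKM in ST and between 15.7 and 19.1 RPKM in NT. Gpr158, a class C receptor that binds the RGS7 complex, ranked 11 with 11.9 RPKM in ST and 12.2 RPKM in NT. The clock receptor Gpr176 ranked 12 with 11.2 RPKM in ST and 10.1 RPKM in NT. Gpr85, known as SREB2 and enriched in brain, followed with 9.97 RPKM in ST and 10.4 RPKM in NT, and Gpr180 and Gpr107 completed the first 15. Gpr56, Gpr137, Gpr17, Gpr158 and Gpr107 share reads, and exons of Gpr137 overlap those of Bad on the opposite strand in GENCODE vM1.

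**Figure D1:**
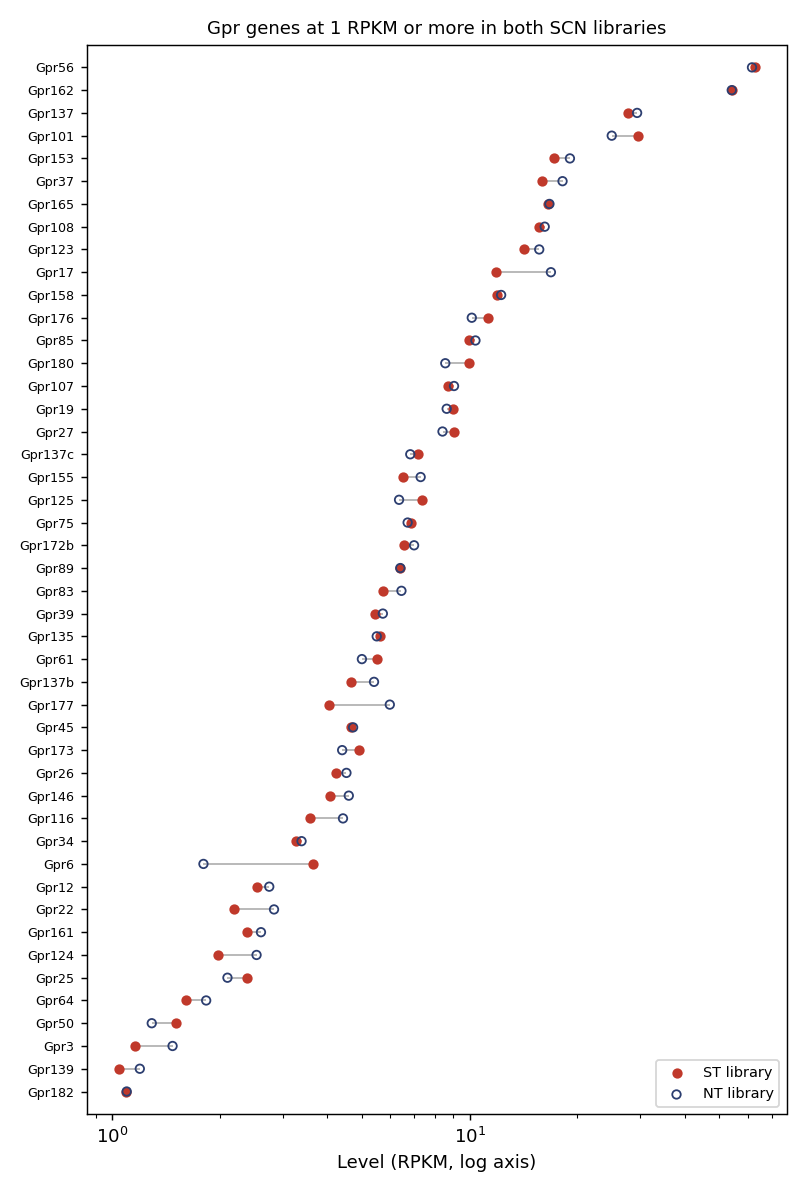
Level in RPKM (log axis) of 46 of the 48 Gpr genes at 1 RPKM or more in both libraries, ordered by mean, with filled points for the ST library and open points for the NT library. Gpr6, with 3.65 RPKM in ST and 1.798 RPKM in NT, and Gpr17, with 11.9 RPKM in ST and 16.9 RPKM in NT, show wide gaps between the libraries.

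Levels also depend on the length that the authors divided by. For 7 members (Gpr27, Gpr135, Gpr25, Gpr151, Gpr15, Gpr81 and Gpr142) the gene model was at most 3 bases longer than the longest coding sequence in GENCODE vM1, so it leaves almost no room for reads in untranslated ends. Ranking by RPM (counts scaled to the library total), which ignores length, kept 9 of the first 10, with Gpr158 in place of Gpr108.

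Ratios of ST to NT were taken for members whose normalised count averaged 50 or more over both libraries, which 51 of 86 members did (59.3%, against 59.2% of all genes). By rank of this average, Gpr25 at 53.0 was the member just inside the limit. Of the 51, 19 (37.3%) were higher and 32 lower in ST, with a median log2 ratio of -0.06 and quartiles of -0.18 and 0.06. Over all 14343 genes measured this way, 7048 (49.1%) were higher and 7295 lower. Their median was -0.00 and the quartiles were -0.08 and 0.07. A difference of 2-fold or more was seen for 1 member on the higher side (1.96%, against 0.0209% of all measured genes) and for 0 members on the lower side (against 0.23%). A difference of at least 25% of the lower library's value, with an interval clear of 1, was seen for 2 members on the higher side (3.92%, against 1.18% of all measured genes) and for 5 on the lower side (9.8%, against 2.63%). The interval alone was above 1 for 6 members (11.8%, against 7.79%) and below 1 for 13 (25.5%, against 10.2%), a count that also depends on how many reads a gene has. The remaining 32 members had intervals that held 1. With genes of whole counts alone, 2 of 32 members were past the 25% limit on the lower side (Gpr22 and Gpr124, 6.25%, against 2.94% of such genes), and with a pseudocount of 5 the log2 ratio of Gpr6 was 0.96, short of 2-fold.

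**Figure D2:**
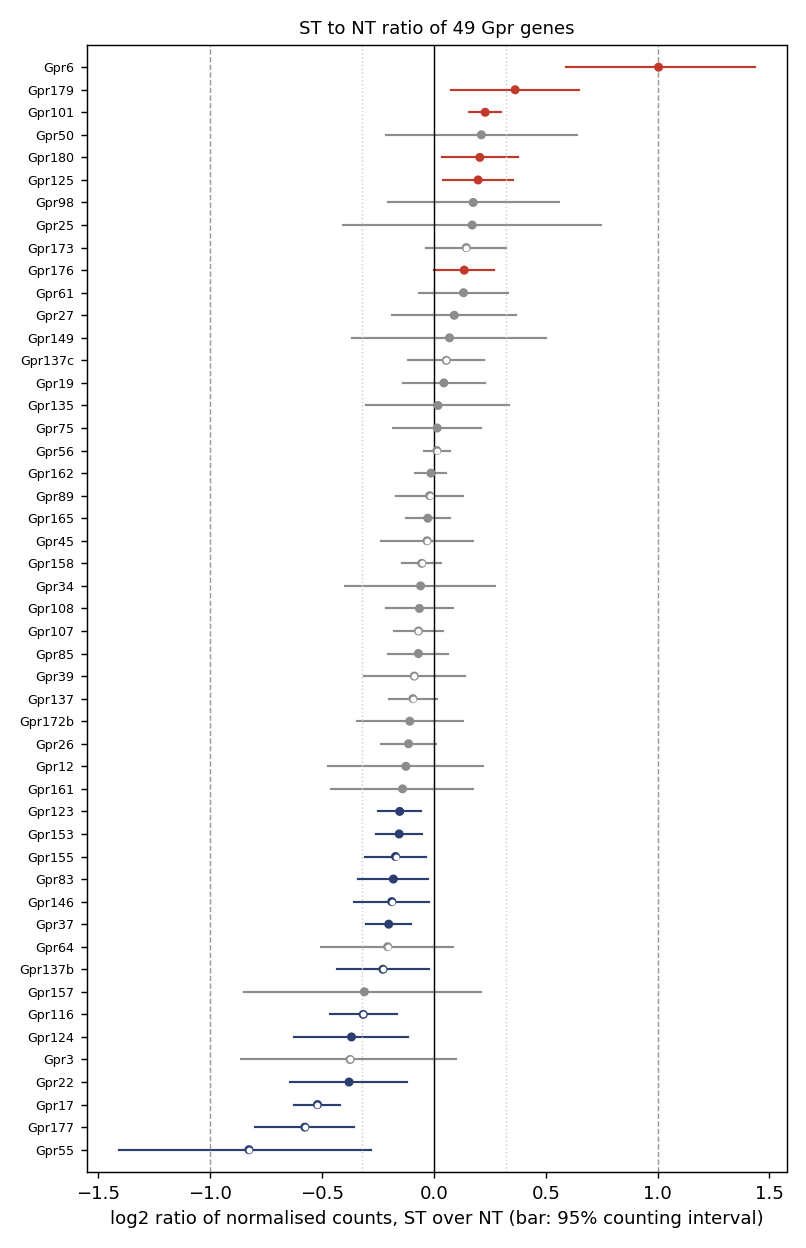
Log2 ratio of normalised counts, ST over NT, with the 95% counting interval for 49 of the 51 Gpr genes measured, red where the interval lies above 0, blue where it lies below and grey where it holds 0. White centres mark genes that share reads, dashed lines 2-fold and dotted lines the 25% limit. Gpr6 is the only gene past 2-fold, and 5 genes (Gpr124, Gpr22, Gpr17, Gpr177 and Gpr55) lie past the 25% limit on the lower side with an interval below 0.

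Gpr6, a receptor best known from striatal neurons of the indirect pathway, was the measured member with the highest ratio. It had 126 counts in ST and 79 in NT, whole numbers as deposited, or 142 in ST and 70.3 in NT after normalisation. The ratio was 2.01-fold (interval 1.51 to 2.70), just past 2-fold. Gpr6 lies on chromosome 10 (40789795 to 40792091, minus strand, mm9), with its protein encoded in 1 exon. Its relatives were on the other side of 1, with intervals that held 1. Gpr3, known for holding oocytes in meiotic arrest through cAMP, had 61 counts in ST and 100 in NT, a ratio of 0.770 (0.551 to 1.07). Its deposited counts are fractional, and its exons overlap those of Cd164l2 on the opposite strand. Gpr12, close to Gpr3 and Gpr6 in sequence, had 122 counts in ST and 168 in NT, a ratio of 0.917 (0.720 to 1.16). Gpr6 made up 40.8% (35.2 to 46.5) of the counts of the 3 genes in ST and 22.8% (18.5 to 27.5) in NT. The ratio of Gpr6 exceeded that of Gpr3 and Gpr12 combined by 2.33-fold (exact conditional interval 1.64 to 3.33). This contrast reuses the counts that made Gpr6 the measured member with the highest ratio. Its interval and those of the shares make no allowance for that, so they add no separate support. The sum of all 3 genes was at 1.12 with an interval that held 1 (0.961 to 1.31). Per length, the subfamily summed to 7.34 RPKM in ST and 6.02 RPKM in NT.

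Markers of striatal neurons, the main known site of Gpr6, were read beside it. Of 10 such genes, 8 were measured, 4 of them higher and 4 lower, with a summed level of 319 RPM in ST and 309 RPM in NT. Drd2, the dopamine receptor of the indirect pathway, had 164 counts in ST and 214 in NT, a log2 ratio of -0.05, and Adora2a, another gene of that pathway, had 18 counts in ST and 29 in NT.

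**Figure D3:**
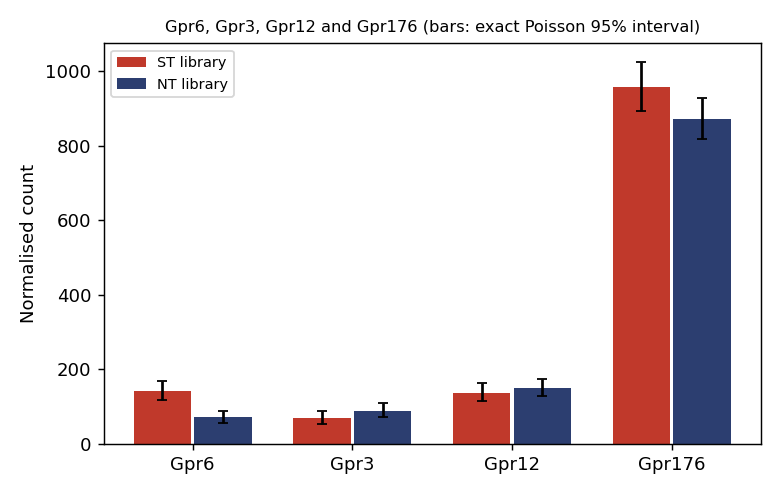
Normalised count of Gpr6, Gpr3, Gpr12 and Gpr176 in the ST and NT libraries, with exact Poisson 95% intervals of the counts. Gpr6 stands at 142 in ST and 70.3 in NT, and the intervals of Gpr3 and Gpr12 overlap between libraries.

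The clock receptor Gpr176 differed little. It had 852 counts in ST and 979 in NT, whole numbers as deposited, or 957 in ST and 871 in NT after normalisation. The ratio was 1.10-fold, with an interval whose lower bound of 1.0008 barely cleared 1 and whose upper bound was 1.21. Gpr176 lies on chromosome 2 (118102846 to 118199155, minus strand, mm9) and has 3 coding exons. Its G protein gene Gnaz had 1222 counts in ST and 1484 in NT, with a log2 ratio of 0.06 and an interval that held 1 (0.963 to 1.12). Rgs16, which ends G protein signalling in SCN neurons, had 4724 counts in ST and 5348 in NT, with a log2 ratio of 0.16 (interval of the fold 1.07 to 1.16).

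The wider set of signalling partners was close to even. Of 11 measured G protein alpha subunits, 3 were higher and 8 lower, with log2 ratios between -0.08 and 0.08, and the interval was above 1 for 1 and below 1 for 2 of them. Gnas, the subunit that raises cAMP, had 45632 counts in ST and 54417 in NT, a log2 ratio of 0.08, and shares reads. Of 8 measured adenylate cyclases, 4 were higher and 4 lower, with a median of -0.00, and Adcy3 at 0.10 was the only 1 with an interval clear of 1. Receptor kinases and arrestins, 7 genes, had 3 higher and 4 lower, a median of -0.04 and 0 intervals clear of 1. Among 15 measured ligands and partners of the members, 7 were higher and 8 lower, and 0 passed the 25% limit in either direction. Pcsk1n, whose product proSAAS yields a proposed ligand of Gpr83, was at 0.19 with 14400 counts in ST and 15920 in NT, and shares reads.

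Among other rhodopsin-like orphans, 5 of 13 measured members were higher and 8 lower, with a median log2 ratio of -0.03. Gpr101 had the largest ratio of this group on the higher side, with 3110 counts in ST and 3349 in NT, and was 1.17-fold higher (1.12 to 1.23). Gpr22, an orphan of brain and heart, had the lowest, with 196 counts in ST and 322 in NT, and was 1.30-fold lower in ST (1.09 to 1.56). Gpr153, with 1313 counts in ST and 1846 in NT, was 1.11-fold lower (1.04 to 1.197). Gpr162 and Gpr165 were close to even. Gpr162 had 3001 counts in ST and 3823 in NT, a ratio of 0.991, and Gpr165 had 1463 counts in ST and 1882 in NT, a ratio of 0.981, and both intervals held 1.

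The SREB receptors, named for their strong conservation and expression in brain, did not differ by more than their counting error. Gpr85 had 792 counts in ST and 1049 in NT, a ratio of 0.953 (0.868 to 1.05). Gpr173, which shares reads, had 487 counts in ST and 556 in NT, a ratio of 1.11 (0.977 to 1.251). Gpr27 had 200 counts in ST and 237 in NT, a ratio of 1.07 (0.878 to 1.29). The sum of the 3 genes had a ratio of 1.01 (0.946 to 1.09).

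Receptors of peptides and proteins, with their relatives, gave 3 higher and 3 lower of 6 measured members. Gpr37, a receptor of oligodendrocytes for which prosaposin has been proposed as ligand, had 1380 counts in ST and 2004 in NT, and was 1.15-fold lower in ST (1.07 to 1.23). Its proposed ligand gene Psap had 37633 counts in ST and 46689 in NT, a log2 ratio of 0.02. Gpr83 was 1.13-fold lower (1.02 to 1.26). Gpr50, the melatonin-related receptor of tanycytes, had the highest ratio of the group, with 90 counts in ST and 98 in NT, a ratio of 1.16 and an interval that held 1 (0.861 to 1.56). Gpr19, with 442 counts in ST and 541 in NT, Gpr39, which senses zinc, and Gpr25 also had intervals that held 1.

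Receptors of lipids, nucleotides and metabolites, with their relatives, were lower in ST for 4 of 4 measured members. Gpr17, which marks oligodendrocyte precursors about to mature and holds that step back, had 1200 counts in ST and 2173 in NT, and was 1.43-fold lower (1.34 to 1.54). It shares reads, and its exons overlap those of Lims2 on the opposite strand. Gpr55, a receptor of lysophosphatidylinositol, had 40 counts in ST and 90 in NT, and was 1.78-fold lower (1.22 to 2.66), and shares reads too. Gpr146 was 1.14-fold lower (1.02 to 1.28) and shares reads. Gpr34, a lysophosphatidylserine receptor of microglia, had 133 counts in ST and 175 in NT, a ratio of 0.959 with an interval that held 1 (0.760 to 1.21).

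Adhesion receptors, whose long outer domains bind matrix or neighbouring cells, split by member, with 3 higher and 4 lower of 7. Gpr125 was 1.15-fold higher in ST (1.03 to 1.28), the highest of the group. Gpr124, which with Reck transmits Wnt7 signals in brain endothelium, had 211 counts in ST and 344 in NT, and was 1.29-fold lower (1.09 to 1.54). Gpr116, also an endothelial receptor, shares reads and had 602 counts in ST and 946 in NT. It was 1.245-fold lower (1.12 to 1.38), just short of the 25% limit. Gpr123, a neuronal member, had 1487 counts in ST and 2087 in NT, and was 1.11-fold lower (1.04 to 1.19). Gpr56 had 4354 counts in ST and 5446 in NT and a ratio of 1.01 (0.969 to 1.05). Gpr98, the very large receptor of hair cells and photoreceptors, was at 1.13 (0.867 to 1.47), and Gpr64 at 0.866 (0.706 to 1.06).

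Of the class C members, Gpr179, which in the retina serves signalling of ON bipolar cells, had 208 counts in ST and 204 in NT, and was 1.29-fold higher (1.06 to 1.57), and passed the 25% limit. Gpr158 had 1890 counts in ST and 2477 in NT, a ratio of 0.963 (0.907 to 1.02), and its partner gene Rgs7 was at a log2 ratio of 0.15 with an interval that held 1.

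Gpr symbols also name membrane proteins outside the classical receptor classes, and 9 of 11 measured ones were lower in ST, with a median log2 ratio of -0.09. Gpr177, better known as Wntless, carries Wnt proteins to the cell surface. It had 259 counts in ST and 488 in NT, and was 1.49-fold lower (1.28 to 1.74), and shares reads. Gpr137b was 1.17-fold lower (1.02 to 1.35) and Gpr155, a lysosomal cholesterol sensor, 1.13-fold lower (1.03 to 1.24), and both share reads. Gpr180, with 549 counts in ST and 601 in NT, was 1.15-fold higher (1.03 to 1.30). Gpr107, with 1157 counts in ST and 1532 in NT, and Gpr108, with 637 counts in ST and 841 in NT, both proteins of the Golgi, had intervals that held 1, as did Gpr137, with 1213 counts in ST and 1634 in NT.

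Genes of non-neuronal cells were lower in the ST library as well, and several of the lower Gpr genes are known from such cells. Of 8 measured markers of oligodendrocyte precursors, 8 were lower (median log2 ratio -0.27, summed 337 RPM in ST and 395 RPM in NT), beside Gpr17 at -0.52 and Gpr56, which these cells also express, at 0.01. Of 12 markers of mature oligodendrocytes, 12 were lower (median -0.30, summed 4964 RPM in ST and 6124 RPM in NT), beside Gpr37 at -0.20. Of 13 endothelial and mural markers, 12 were lower (median -0.32, summed 272 RPM in ST and 339 RPM in NT), beside Gpr124 at -0.37 and Gpr116 at -0.32. Of 12 microglial markers, 12 were lower (median -0.24, summed 326 RPM in ST and 377 RPM in NT), beside Gpr34 at -0.06. Meningeal markers were lower in 7 of 7 cases (median -0.94, summed 69.2 RPM in ST and 129.7 RPM in NT) and blood markers in 5 of 5 (median -0.23, summed 111 RPM in ST and 123.5 RPM in NT). Of 12 astrocyte markers, 8 were lower (median -0.05), as were 8 of 12 SCN markers (median -0.07), 4 of 6 of thalamus and habenula (median -0.09) and 3 of 4 of pituitary and arcuate nucleus (median -0.24). The pituitary and arcuate markers summed to 28.5 RPM in ST and 62.4 RPM in NT, and without Pomc, the precursor of ACTH, to 21.2 RPM in ST and 23.5 RPM in NT. No marker of the precursor, oligodendrocyte, endothelial, microglial, meningeal, blood, astrocyte and SCN lists was at 0 in either library. The part of these cells in the Gpr ratios was not tested, and in tissue libraries fewer cells of a type and less RNA per cell cannot be told apart.

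**Figure D4:**
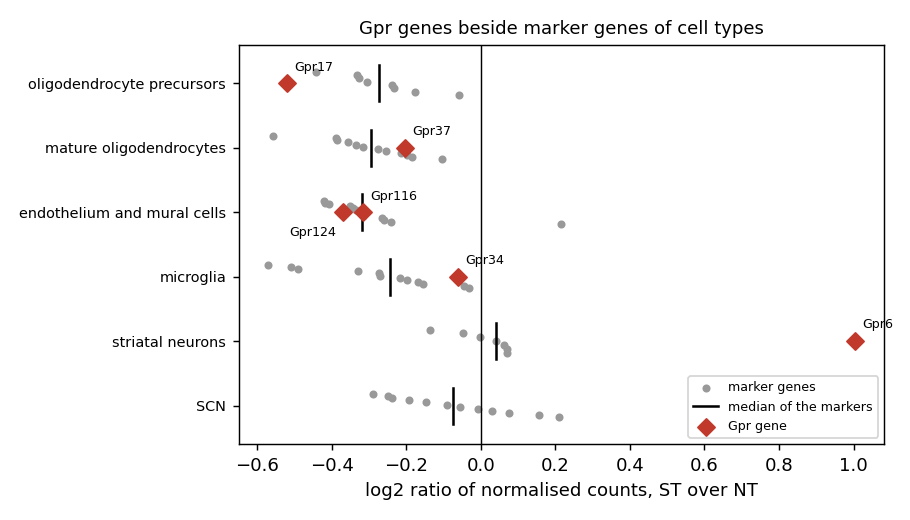
Log2 ratio of ST over NT for marker genes of cell types or regions (grey points, black line at their median) and for Gpr genes known from them (red diamonds). Gpr17, Gpr37, Gpr116 and Gpr124 lie on the lower side, as do most markers beside them. Gpr17 at -0.52 lies below all the precursor markers shown, the lowest of which is at -0.44. Gpr6 at 1.004 lies apart from the striatal markers, which run from -0.14 to 0.07 among those shown.

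Below the limit for ratios were 35 members, with 404 counts in ST and 638 in NT between them. After normalisation 24 of them (68.6%) were lower and 11 (31.4%) higher in ST, against 50.7% and 49.3% of the 8558 genes with a count in either library and a mean below the limit. The interval lay below 1 for 4 members (11.4%, against 1.66% of those genes). It lay above 1 for 0 of the 35 members, against 107 of the 8558 genes. At so small a share, a count of 0 among 35 members says little. Gpr84, a medium-chain fatty acid receptor that activated microglia express, had 3 counts in ST and 22 in NT, with an interval below 1. Gpr160 had 6 counts in ST and 22 in NT, the adhesion receptor Gpr133 had 8 counts in ST and 26 in NT, and Gpr63, which shares reads, had 15 counts in ST and 38 in NT. Other receptors of immune cells had intervals that held 1: Gpr183, which binds oxysterols, had 13 counts in ST and 13 in NT, and Gpr65 had 3 counts in ST and 9 in NT. Gpr139 and Gpr151 are both known from habenula. Gpr139 had 24 counts in ST and 35 in NT, and Gpr151 had 12 counts in ST and 10 in NT. No member was at 0 in both libraries. In ST, 6 members rounded to 0 counts (Gpr44, Gpr142, Gpr143, Gpr132, Gpr110 and Gpr174), and in NT 4 did, among them Gpr119, Gpr81 and Gpr18. A count of 0 allows up to 0.154 RPM in ST and 0.121 RPM in NT (3 counts), so these genes were not detectable at this depth in the library concerned.

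**Figure D5:**
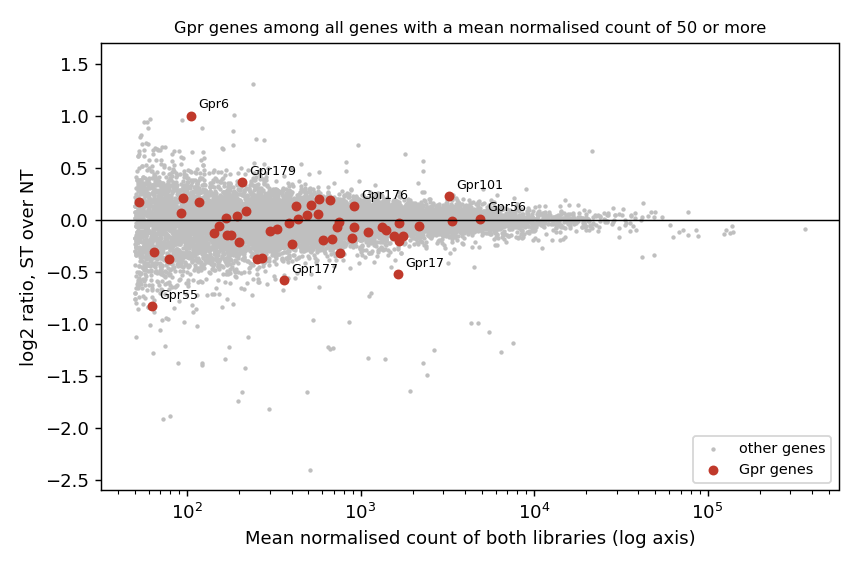
Log2 ratio of ST over NT against the mean normalised count (log axis) for the 51 Gpr genes in red and the other measured genes in grey, with 1 gene outside the axis. Gpr6 at 1.004 and Gpr55 at -0.83 lie near the lower end of counts, whereas Gpr17 at -0.52 and Gpr101 at 0.23 have higher counts.

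The authors' deposited table gives its own comparison of ST with NT. Of the 86 members, 0 had an adjusted p of 0.05 or less in the authors' deposited table, where 49 of 24229 genes (0.202%) did. At an unadjusted p of 0.05, the authors' deposited table calls 8 members (9.3%, against 2.16% of all genes). The lowest adjusted p in the authors' deposited table was 0.0589 for Gpr17, followed by 0.110 for Gpr6, 0.437 for Gpr177 and 0.513 for Gpr84. These values of the authors' deposited table rest on 1 library per group and carry no replicate error.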

How the data were processed

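Polyadenylated RNA of SCN tissue, its cell fraction not given in the sources used here, was sequenced, with 1 library each for ST and NT. Per the submitters' processing notes, CASAVA 1.8.2, TopHat 1.2, DESeq and the build mm9 were used, with no role or order given; no source used here names the counter or its strand setting. Per the file headers, the authors deposited estimated counts, RPKM, RPM, a fold change with its log2, and p-values with adjusted p-values. Estimated counts that were fractional (tolerance 1e-06) were taken to include shared reads. A further 3 columns of means were not used.

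Counts were rounded and divided by size factors of the median-of-ratios kind (ST 0.890, NT 1.12). Log2 ratios used a pseudocount of 0.5, and folds none. Intervals rescale the ST share of both counts. All genes entered the scaling, and the calculations were tested on simulated data. Levels are the deposited RPKM. All 86 members lay at their GENCODE vM1 locus (mm9), and promoter windows came from RefSeq (GRCm38.p6). Python 3.11.15, scipy 1.17.1, pandas 2.3.3 and edgeR 4.0.16 (TMM factors) were used. Members, lists, thresholds and the genes known from each cell type were chosen with earlier results of these data known. Named were the subfamilies of Gpr176, Gpr6 and SREB, the 15 highest members, those past the 25% limit, the extremes of each role group, the member just above the count limit and, by counts, further ones below it. Alternatives were 2 other scalings, other count limits, a pseudocount of 5, whole counts only and deposited RPKM ratios. Some members are counted in the totals but not reported here by name.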

Additional observations from a re-analysis of the deposited data

How the results depend on the processing

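No paired analysis was possible because ST and NT have 1 library apiece, which also leaves nothing to omit. Gpr6 sits on the 2-fold limit: the number of members at least 2-fold higher in ST was 0 with a pseudocount of 5 and 0 with a count limit of 200, which Gpr6 does not reach. With a count limit of 10, 3 of 67 members were at least 2-fold lower (Gpr84, Gpr133 and Gpr160; 4.48%, against 0.734% of all genes at that limit) and 9 were past the 25% limit on the lower side (13.4%, against 2.82%). Past the 25% limit, the count limit of 200 left 1 member higher (Gpr179; 2.78%, against 0.562%), and whole counts alone left 2 lower (Gpr22 and Gpr124), since Gpr17, Gpr177 and Gpr55 share reads. The median log2 ratio ran from -0.09 with a limit of 10 to -0.02 with whole counts. Log2 ratios shifted by 0.0122 under scaling to total counts and by 0.000135 under TMM. The 124 values of 31 named members under other scalings, the pseudocount of 5 and RPKM ratios stayed within their counting intervals. That says little, since a scaling shifts all log2 ratios nearly alike and RPKM ratios nearly repeat the scaling to total counts. Low counts widen the intervals of Gpr6, Gpr3 and Gpr55, the last with 40 counts in ST and 90 in NT.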

Other observations

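Members that lie side by side in the genome differed widely in level. On chromosome 8 (mm9), Gpr56 (97508271 to 97538101) and Gpr97 (97541618 to 97569146) follow each other. Gpr56 had 4354 counts in ST and 5446 in NT, whereas Gpr97 had 2 counts in ST and 4 in NT. On chromosome 17, Gpr115, Gpr111, Gpr110 and Gpr116 lie between 42793840 and 43596506, all of them adhesion receptors. Of these, Gpr116 had 602 counts in ST and 946 in NT, Gpr115 38 and 54, Gpr111 7 and 18, and Gpr110 0 and 1. In all, 9 of the 86 members lie on the X chromosome.

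Of the 86 members, 40 have their longest coding sequence in 1 exon. Their median level was 0.940 RPKM in ST and 1.07 RPKM in NT, and that of the 46 members with more coding exons was 2.98 RPKM in ST and 3.63 RPKM in NT. Exons of 20 members overlap another annotated gene, and 18 of these 20 share reads.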
